A study of Gallus gallus with 8 samples.

Results

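The genes described here are 10 genes of bone morphogenetic protein (BMP) signaling: the ligands BMP4 and BMP7, the receptors BMPR1A, BMPR1B and BMPR2, the secreted antagonists CER1 and BMPER, and the target genes ID1, ID2 and ID3. They were taken from 16906 loci by the gene name in the deposited table. By that name 9 of the 10 were found, and BMPR2 was found as BMPR-II, which RefSeq lists as its synonym. CER1 and BMPER were picked from the data because they rise in the equatorial epithelium. Their values in that region, and their ratios to the central epithelium, are therefore given as a description and support nothing.

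The tissue was the lens of chickens at embryonic day 13, with no treatment named, and with strain and genotype not given in the labels. It was microdissected into 4 regions along the path of differentiation: the central epithelium (EC), which is not differentiating, the equatorial epithelium (EQ), where differentiation starts, the cortical fibers (FP) and the central fibers (FC). Each region gave 2 mRNA libraries from pools of 100 lenses, 8 in all, and libraries of different regions may come from the same lenses. Values are fragments per kilobase of transcript, scaled to the number of mapped fragments (FPKM), a scale on which different genes can be set side by side. Every FPKM below is the authors' value, 1 per locus and region pooled over the 2 libraries, with the 95% interval that cuffdiff gave. Values per library were not analysed here, so there is no standard deviation and no test, and the table holds no read counts from which a depth could be given.

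BMPs are secreted proteins that bring type I and type II receptor kinases together. The type II receptor activates the type I receptor, which phosphorylates SMAD1, SMAD5 and SMAD9, and these enter the nucleus with SMAD4 and switch on target genes, of which the ID genes are among the most direct. Secreted antagonists bind the ligands before they reach a receptor. In the mouse, BMP4 and BMP7 are needed for the lens to form, and in the chicken BMP signaling takes part in fiber differentiation.

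The regions were checked against markers of their labels. The lens fiber markers, of which 8 of 10 were found, together stood at 537 FPKM in EC, at 1129 in EQ, at 29262 in FP and at 39518 in FC. Most of that sum was BFSP1 and BFSP2, at 12162 and 12633 FPKM in FP, and PROX1 was highest in EQ, at 76.0 FPKM. The 5 lens epithelium markers together stood at 540 FPKM in EC, at 466 in EQ, at 216 in FP and at 225 in FC, but FOXE3, a defining factor of lens epithelium, was at 0.735 FPKM or less in every region. Of these 5 markers, 3 were highest in EC, while PDGFRA was at 88.8 FPKM in EQ, against 17.5 in EC. A shift common to most genes was seen between regions: over the 9068 loci at 1 FPKM or more in every region, the log2 ratio had a median of 0.27 in EQ against EC, of -0.30 in FP against EQ, of 0.10 in FC against FP and of -0.15 in fibers against epithelium.

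The ligands were at low levels and were highest in EC. BMP7 (chromosome 20, 12026080 to 12069868, as the table lists it on the Galgal4 assembly) was at 10.6 FPKM in EC (3.44 to 17.8), at 4.63 in EQ (1.88 to 7.35), at 2.52 in FP (0.352 to 5.48) and at 2.89 in FC (0.665 to 5.36). It was therefore lower in EQ than in EC by 1.20 on the log2 scale, a ratio of 0.435, and all its intervals overlapped. In bulk tissue, fewer cells of a type and less RNA per cell cannot be told apart, here and in all that follows. BMP4 (chromosome 5, 58454253 to 58457967) was at 2.93 FPKM in EC (0.914 to 4.77), at 0.661 in EQ (0.131 to 1.18), at 1.42 in FP (0.457 to 2.35) and at 2.13 in FC (0.718 to 3.53). Unlike BMP7 it was lowest in EQ, with a ratio of EQ to EC of 0.226, and was 2.15-fold higher in FP than in EQ, again with intervals that overlapped. Its sum over both fiber regions was 0.990 times that over both epithelial regions. The sum of BMP4 and BMP7 stood at 13.6 FPKM in EC, at 5.29 in EQ, at 3.94 in FP and at 5.02 in FC.

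Markers of several tissues outside the lens also had their highest sum in EC, and their part in the EC level of the ligands was not tested. Of 6 red blood cell loci, 4 were highest in EC, and they together stood at 759 FPKM in EC, at 128 in EQ, at 164 in FP and at 248 in FC, with 1 HBZ locus at 0 throughout. Of 4 retina markers, 3 were highest in EC, and they together stood at 11 FPKM in EC, at 1.59 in EQ, at 4.10 in FP and at 5.53 in FC. The 7 markers of pigmented epithelium, iris and melanocytes together stood at 6.83 FPKM in EC, at 2.84 in EQ, at 2.88 in FP and at 4.98 in FC. Of these 7, 4 were highest in EC, while PMEL was highest in FC, at 3.29 FPKM. The sums of the vessel and mesenchyme markers were also highest in EC, at 3.45 and 10.4 FPKM. However, only 2 of 4 loci of each set were highest there. In EC, VWF alone was at 1.72 FPKM and COL1A2 alone at 8.41. The 3 immune cell markers had their highest sum in FP, 5.04 FPKM, most of it CD3E.

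**Figure D1:**
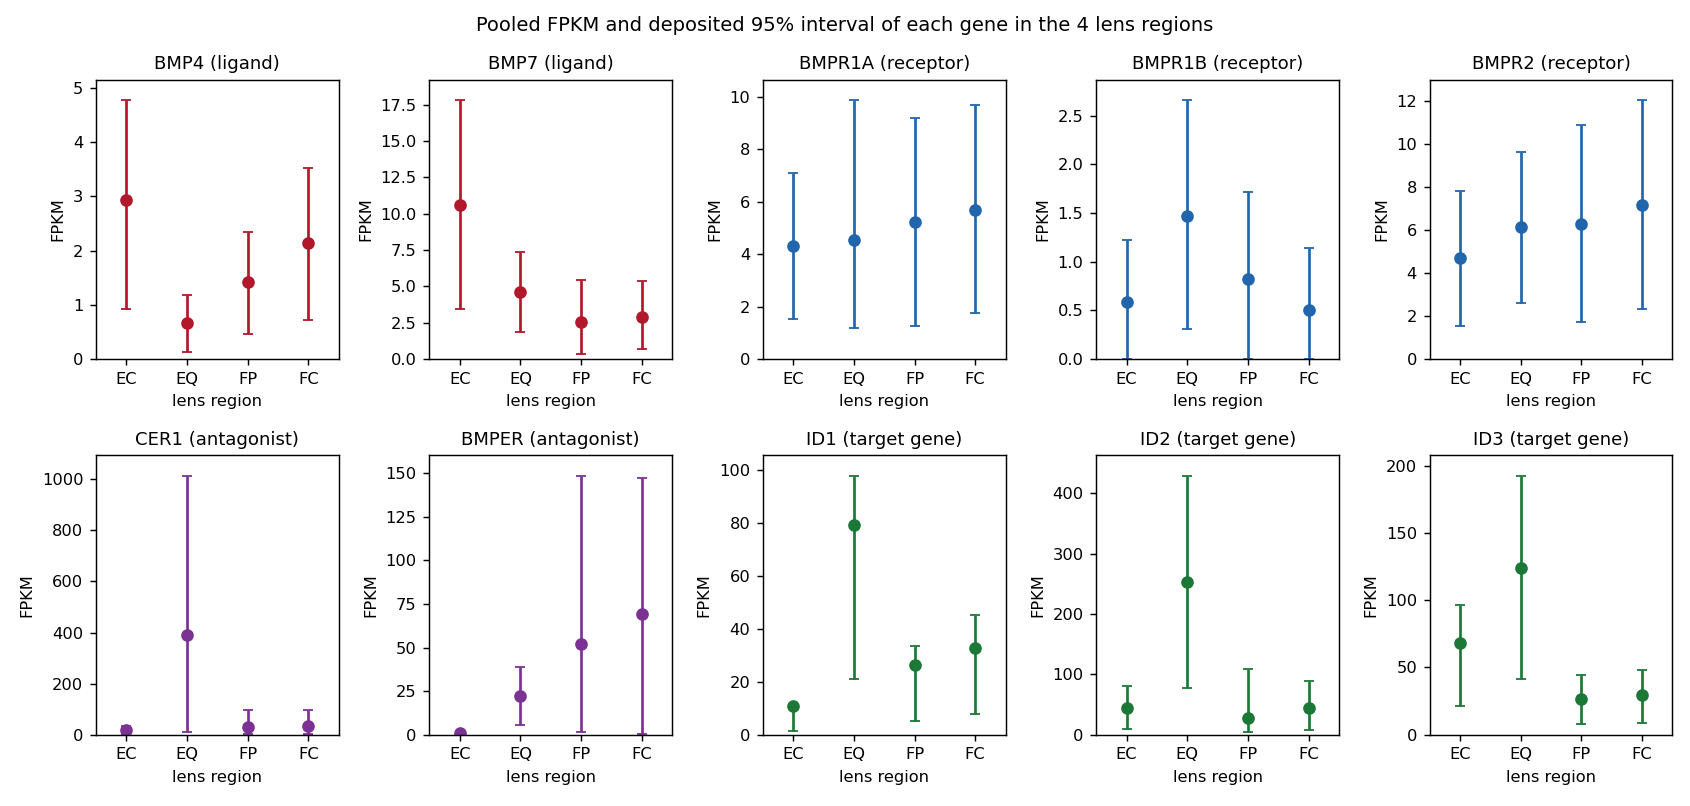
Authors' pooled FPKM (points, vertical axis, linear and from 0, with its own range in each panel) with the deposited 95% interval (bars) of the 10 genes in the lens regions EC, EQ, FP and FC (horizontal axis). CER1 reached 391 FPKM in EQ and was between 18.3 and 33.7 elsewhere, BMPER was at 69.1 FPKM in FC and at 1.24 in EC, and ID1, ID2 and ID3 were all highest in EQ.

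The receptors of the group varied least. BMPR1A, a type I receptor (chromosome 6, 2035726 to 2074031), was at 4.33 FPKM in EC (1.52 to 7.09), at 4.56 in EQ (1.18 to 9.87), at 5.22 in FP (1.27 to 9.19) and at 5.70 in FC (1.77 to 9.70). The highest region was thus only 1.32-fold above the lowest, and the sign of its small log2 ratio of EQ over EC, 0.07, turned when the regions were rescaled, reaching -0.19. BMPR2, the type II receptor of BMPs (chromosome 7, 11320598 to 11416297), was at 4.70 FPKM in EC (1.55 to 7.83), at 6.15 in EQ (2.62 to 9.66), at 6.28 in FP (1.71 to 10.9) and at 7.18 in FC (2.35 to 12.0), a range of 1.53-fold. BMPR1B, the other type I receptor (chromosome 4, 57960583 to 58196338), was scarce. It was at 0.584 FPKM in EC (0 to 1.22), at 1.47 in EQ (0.309 to 2.66), at 0.819 in FP (0 to 1.71) and at 0.504 in FC (0 to 1.14). It was 2.52-fold higher in EQ than in EC, but the lower bound was 0 in the other regions and all the intervals overlapped.

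Set beside ACVR1, ACVR2A and ACVR2B, which can also carry a BMP signal, the receptors of the group were a minor share of the transcripts. A further receptor, ACVRL1, was at most 1.14 FPKM in any region and is not part of the sums below. ACVR1, a type I receptor that also binds BMPs, was at 17.9 FPKM in EC, at 15.8 in EQ, at 23.9 in FP and at 23.0 in FC, which was 78.5%, 72.4%, 79.8% and 78.8% of the sum of ACVR1, BMPR1A and BMPR1B. The share of BMPR1A in that sum was even, between 17.4% in FP and 20.9% in EQ. BMPR1B had its largest share in EQ, 6.74%, and lay between 1.73% and 2.74% in the other regions. Among the type II receptors, which BMPs share with activins, the share of BMPR2 in the sum with ACVR2A and ACVR2B was 15.6% in EC and 16.6% in EQ, below the 24.8% of FP and the 28.3% of FC. ACVR2A, an activin receptor, had 30.7% of the sum in FC, against 45.3% in EQ, and its own level was 7.80 FPKM in FC, against 16.8 in EQ.

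CER1 (cerberus), which in the frog binds BMP, Nodal and Wnt proteins, reached the highest level of the group in any region. It lies on chromosome Z at 31561572 to 31567431, and was at 18.3 FPKM in EC (2.18 to 34.4), at 391 in EQ (12.2 to 1012), at 28.6 in FP (2.34 to 95.6) and at 33.7 in FC (3.64 to 95.7). It was 21.3-fold higher in EQ than in EC, the 2nd highest ratio of the 11173 loci compared, a rank that follows from the choice of the gene. The ratio of FP to EQ was 0.0733, the 36th lowest of 11005 loci. The interval in EQ was the widest of the group and overlapped those of all other regions, and EC, FP and FC differed from one another by less than their intervals.

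BMPER (crossveinless-2), a secreted protein that binds BMPs and can hold back or help their signal, was high in EQ as well, and also in the fibers. BMPER, on chromosome 2 at 48102079 to 48250009, was at 1.24 FPKM in EC (0.137 to 2.34), at 22.4 in EQ (5.73 to 39.1), at 51.7 in FP (1.35 to 148) and at 69.1 in FC (0.723 to 147). It was 18.1-fold higher in EQ than in EC, the 4th highest ratio of 11173 loci, and here the intervals did not overlap. BMPER was picked for its rise in EQ, so its rank and intervals for EQ over EC are a description only. The same holds for its ratio of FC to EC, which has the same denominator. FP was 2.31-fold above EQ and FC 55.9-fold above EC, but the intervals in FP and FC reached from near the EC level up to 148 and 147, so that the order of EQ, FP and FC was within them. The log2 ratio of FP over EQ was 1.21 for BMPER and -3.77 for CER1, with the EQ value that picked the genes as the denominator of both and with overlapping intervals for both.

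The ID genes encode helix-loop-helix proteins without a DNA-binding region, which bind the E proteins TCF3, TCF4 and TCF12 and keep them off DNA. ID1 (chromosome 20, 10351640 to 10352379) was at 10.9 FPKM in EC (1.33 to 11.4), at 79.3 in EQ (21.0 to 97.8), at 26.2 in FP (5.05 to 33.8) and at 32.9 in FC (7.97 to 45.5). It was 7.30-fold higher in EQ than in EC with intervals that did not overlap, though the EC value lay close to its upper bound, and in FC it was 3.03-fold above EC. Between EQ and FP, where the ratio was 0.331, the intervals overlapped.

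ID2 was more abundant than ID1 in EQ and had a lower ratio of FP to EQ. ID2 (chromosome 3, 95424294 to 95426233) was at 44.3 FPKM in EC (9.03 to 80.2), at 253 in EQ (77.7 to 429), at 28.5 in FP (3.85 to 108) and at 45 in FC (7.57 to 88.6). The ratio was 5.72 for EQ over EC, and the intervals of these regions overlapped by a narrow margin, from 77.7 to 80.2. The ratio was 0.112 for FP over EQ, the 120th lowest of 11005 loci. FC and EC were close in level, at 45 FPKM in FC and 44.3 in EC.

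ID3 differed least between the epithelial regions and was the most abundant ID gene in EC. ID3 (chromosome 23, 2169482 to 2170150) was at 68.3 FPKM in EC (21.2 to 96.6), at 124 in EQ (41.1 to 192), at 26.7 in FP (7.89 to 44.1) and at 29.3 in FC (8.98 to 48.2). It was 1.81-fold higher in EQ than in EC, short of 2-fold, and the ratio of FP to EQ was 0.216. All its intervals overlapped.

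The sum of ID1, ID2 and ID3 stood at 123 FPKM in EC, at 457 in EQ, at 81.5 in FP and at 107 in FC. ID4 was not found by name or synonym and is in no sum. ID3 was the main ID transcript in EC, with 55.3% of the sum, against 35.9% for ID2 and 8.80% for ID1. In EQ it was ID2 with 55.5%, and in FP the 3 genes had nearly equal shares, 32.2% for ID1, 35% for ID2 and 32.8% for ID3. Their E protein partners varied less, with a sum that stood at 65.7 FPKM in EC, at 69.1 in EQ, at 42.7 in FP and at 44.1 in FC. TCF3 was found under the listed name G12. TCF12 was the most abundant of them, at 41.9 FPKM in EC, at 45.3 in EQ, at 27.5 in FP and at 25.8 in FC. The ratio of the ID sum to the E protein sum stood at 1.88 in EC, at 6.61 in EQ, at 1.91 in FP and at 2.44 in FC. EQ was the highest region also with any 1 ID gene left out, at 5.46 without ID1, 2.94 without ID2 and 4.81 without ID3. Each ID gene was itself highest in EQ, so leaving 1 out is a description and adds no support.

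**Figure D2:**
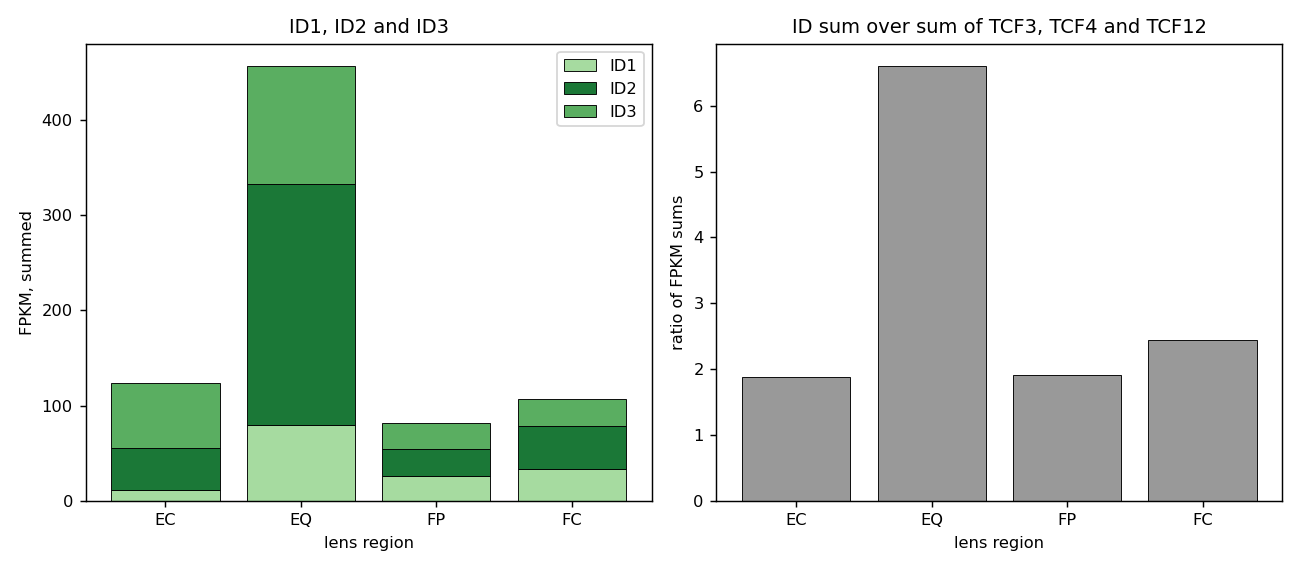
Left, summed FPKM (linear axis from 0) of ID1, ID2 and ID3, stacked, in the lens regions EC, EQ, FP and FC, and right, the ratio of that sum to the summed FPKM of TCF3, TCF4 and TCF12, with no error bars because each region has 1 pooled value. The ID sum was 457 FPKM in EQ and at most 123 elsewhere, and the ratio was 6.61 in EQ and at most 2.44 elsewhere.

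The group was then counted against all loci. All 10 genes, not only CER1 and BMPER, were chosen with earlier results of these data known. Their counts here and below are therefore a description only. A locus was compared where both FPKM were above 0 and at least 1 of them was 1 or more, and counted as higher or lower at a ratio of 2 or more, or 0.5 or less. For EQ over EC, 5 of the 10 genes were higher (BMPR1B, CER1, BMPER, ID1 and ID2), where 8.89% of 11173 loci were. Without CER1 and BMPER, which were chosen by their rise in EQ, it was 3 of 8. The ligands BMP4 and BMP7 were the 2 that were lower, where 9.36% of loci were. BMPR1B was below 1 FPKM in EC, and BMP4 was below it in EQ. With 1 FPKM or more demanded in both regions, neither gene was compared. The higher genes were then ID1 and ID2 besides the picked CER1 and BMPER, and BMP7 alone was lower. The nearest to the threshold were BMP7 inside it, at 2.30-fold lower, and ID3 outside it, at 1.81-fold higher. With the added demand that the intervals did not overlap, BMPER and ID1 were higher, where 0.761% of loci were, and none of the 10 was lower, where 0.698% of loci were. Of the 8 genes that were not picked for a rise in EQ, ID1 was the 1 that met it. The median log2 ratio of EQ over EC was 0.63 over these 8 genes and 0.23 over all loci, and 1.10 with CER1 and BMPER, which the choice of genes raised.

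For FP over EQ, 4 of the 10 genes were lower, CER1 and the 3 ID genes, where 25.7% of 11005 loci were lower. BMP4, which was below 1 FPKM in EQ, and BMPER were higher, where 15.5% of loci were. In none of these did the intervals part, which they did in 2.53% of loci for lower and 2.39% for higher. The median log2 ratio was -0.86 over the 10 genes and -0.30 over all loci. Without CER1 and BMPER, 3 of 8 were lower and 1 was higher, with the same median. EQ was at least 2-fold above both EC and FP for CER1, which was picked for its rise in EQ, and for ID1 and ID2, which were 2 of the other 8, and for 3.57% of 10507 loci.

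Between the fiber regions, none of the 9 genes that could be compared differed by 2-fold for FC over FP, where 3.04% of 10475 loci were higher and 2.83% were lower. The largest of these ratios was that of ID2, 1.58. For the sum of both fiber regions over that of both epithelial regions, BMPER alone was higher, 5.11-fold, where 16.8% of 11829 loci were. BMP7, CER1, ID2 and ID3 were lower, with ratios of 0.355, 0.152, 0.247 and 0.292, where 24.6% of loci were. ID1, at 0.656, was not. The median log2 ratio was -0.62 over the 10 genes. The EQ value that picked CER1 and BMPER is part of the epithelial sum. Without CER1 and BMPER, 3 of 8 genes were lower and none was higher, with the same median.

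The region of highest level was the same within the ligands and within the ID genes, but not within the receptors or the antagonists. Both ligands were highest in EC, as were 24.6% of 12362 loci, and CER1, BMPR1B and the 3 ID genes were highest in EQ, as were 35.8% of loci. BMPR1A, BMPR2 and BMPER were highest in FC, as were 25.7% of loci, and none was highest in FP, as were 13.9%. The counts of 2 of 10 in EC and 3 of 10 in FC were near these shares, and in EQ it was 4 of 8 without CER1 and BMPER.

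**Figure D3:**
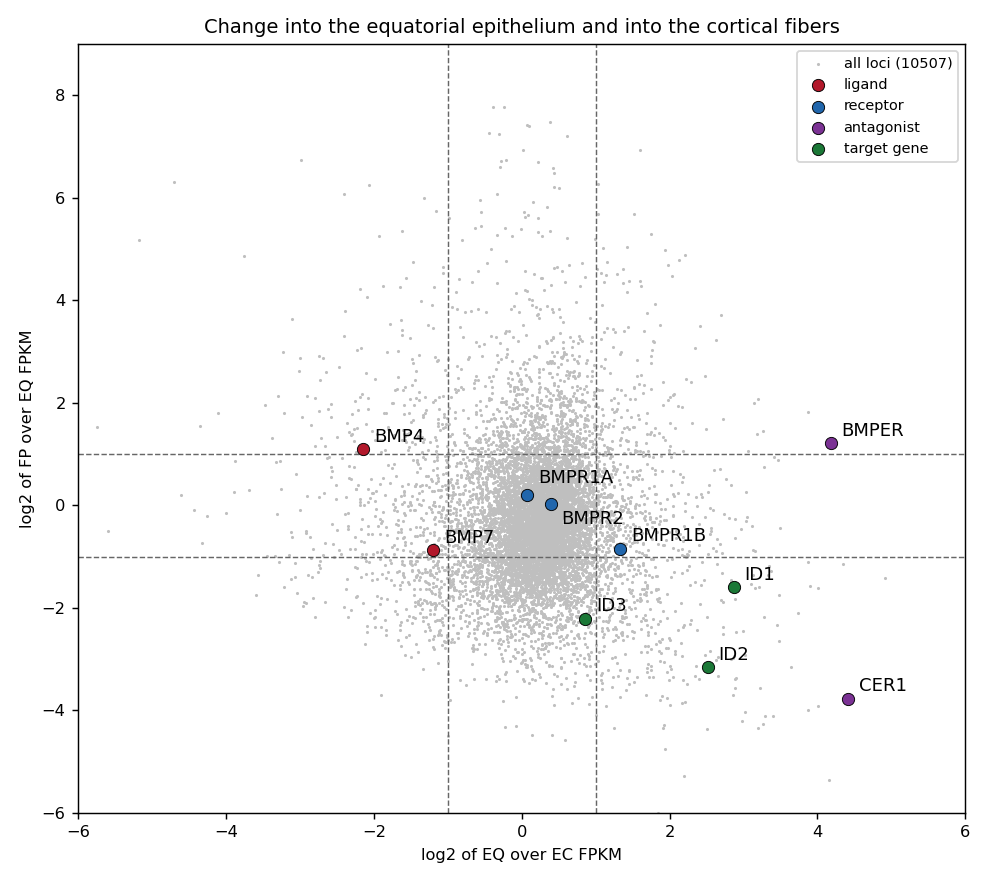
Log2 ratio of EQ over EC FPKM (horizontal axis) against log2 ratio of FP over EQ FPKM (vertical axis) for 10507 loci (gray points) and the 10 genes (colored by role), with dashed lines at 2-fold. The axes share the EQ value, so a high EQ level moves a point right and down: CER1 lay at 4.42 and -3.77, ID2 at 2.52 and -3.15 and ID1 at 2.87 and -1.60, while BMPER lay at 4.18 and 1.21 and BMP4 at -2.15 and 1.10.

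The rest of the pathway was followed through a list of 105 other genes by role, of which 85 were found, at 86 loci. ID4, SMAD4 and SMAD7 were among the 20 not found. For EQ over EC, 8 of 58 loci (13.8%) were higher and 12 (20.7%) were lower, where 8.89% and 9.36% of all loci were, with a median log2 ratio of 0.07. Among those lower, AMH, BMP3, CHRD, NODAL and TBX2 were below 1 FPKM in EQ and so were compared through EC alone. With 1 FPKM or more demanded in both regions, 7 of 50 loci were higher and 7 were lower. The share over all loci was not taken under that demand. For FP over EQ, 8 of 57 (14.0%) were higher, close to the 15.5% of all loci, and 26 (45.6%) were lower, where 25.7% of all loci were, with a median of -0.72. For FC over FP, TCF4 was higher and NOG and RUNX2 were lower, of 57, where 3.04% and 2.83% of all loci were. For fibers over epithelium, 9 of 66 (13.6%) were higher and 28 (42.4%) were lower, where 16.8% and 24.6% of all loci were, with a median of -0.76, against -0.20 over all loci.

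Of 9 other ligands compared for fibers over epithelium, 3 were higher (BMP2, GDF10 and GDF2) and 6 were lower (AMH, BMP3, BMP6, GDF3, INHBB and NODAL). The shares over all loci were 16.8% and 24.6%. The median log2 ratio of these 9 ligands was -1.35. Of those lower, AMH, BMP3, BMP6 and NODAL were at most 2.2 FPKM in any region. With 1 FPKM or more demanded of both sums, BMP3, BMP6 and NODAL were not counted as lower, nor GDF2 as higher. BMP2, which shares receptors with BMP4, was at 0.568 FPKM in EC (0 to 1.09), at 0.566 in EQ (0 to 1.09), at 8.89 in FP (3.27 to 14.4) and at 7.90 in FC (2.91 to 12.7), and its intervals in EQ and FP did not overlap. With BMP2 added, the sum of BMP4 and BMP7 stood at 14.1 FPKM in EC, at 5.85 in EQ, at 12.8 in FP and at 12.9 in FC. GDF10, a distant member of the BMP family, was at 1.40 FPKM in EC and at 1.63 in EQ (0.303 to 2.95). It was at 65.7 in FP (3.80 to 140) and at 73.3 in FC. GDF2, also called BMP9 and listed here as DSL1, was at 0.343 FPKM in EC and at 0.278 in EQ (0 to 0.599). It was at 14.0 in FP (5.39 to 22.5) and at 17.8 in FC. For both genes the intervals of EQ and FP did not overlap, but for GDF10 the gap was narrow, from 2.95 to 3.80. Of the ligands lower in FP, INHBB, an activin subunit, peaked in EQ at 6.75 FPKM, against 1.63 in EC and 0.665 in FP, and GDF3 (listed as CVG1) was at 2.22 FPKM in FP, against 6.35 in EQ.

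The other secreted antagonists and modulators were listed with earlier results of these data known. Of these, 8 of 16 were lower for EQ over EC (CHRD, CHRDL1, CTGF, CYR61, FSTL1, FSTL4, NBL1 and TLL1), where 9.36% of all loci were. CHRD was below 1 FPKM in EQ. DCN and TLL2 were higher, and TLL2 was short of 2-fold under all 3 rescalings of the regions. CHRDL1, a chordin-like BMP binder, was at 136 FPKM in EC, at 34.0 in EQ, at 7.40 in FP and at 5.60 in FC. NBL1, of the same DAN family as CER1, was at 290.1 FPKM in EC, at 82.7 in EQ, at 33.7 in FP and at 27.8 in FC, so that CER1 was above NBL1 in EQ, with intervals that overlapped, and below it in EC, with intervals that did not. FSTL4, related to follistatin, was at 4.88 FPKM (1.78 to 7.97) in EQ, against 23.1 (8.19 to 38.0) in EC, intervals that did not overlap. TLL1, related to the proteases that cut chordin, was at 15.3 FPKM in EQ, against 78.1 in EC, while TLL2 of the same family was at 43.8 in EQ, against 21.4 in EC. CYR61, FSTL1 and NOV were among the most abundant of this role, with 19.6, 38.5 and 55.4 FPKM in FP, against 369, 272 and 190 in EC, and CTGF was at 1.25 in FP, against 9.29 in EC. VWC2L was the most abundant of this role in FP and FC. It was at 69.8 FPKM in EC, at 88.4 in EQ, at 110 in FP and at 119 in FC. TWSG1 was at 31.2, 32.9, 42.7 and 42.1 FPKM in the same order. Neither differed by 2-fold between neighboring regions. For FP over EQ, 9 of 17 loci of this role were lower and 2 were higher, where 25.7% and 15.5% of all loci were. DCN (decorin) was high in the fibers, with 1.03 FPKM in EC, 2.61 in EQ and 12.4 in FP. The classical antagonists noggin (NOG) and chordin (CHRD) stayed low, at most 1.23 FPKM and 2.57 FPKM in any region.

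**Figure D4:**
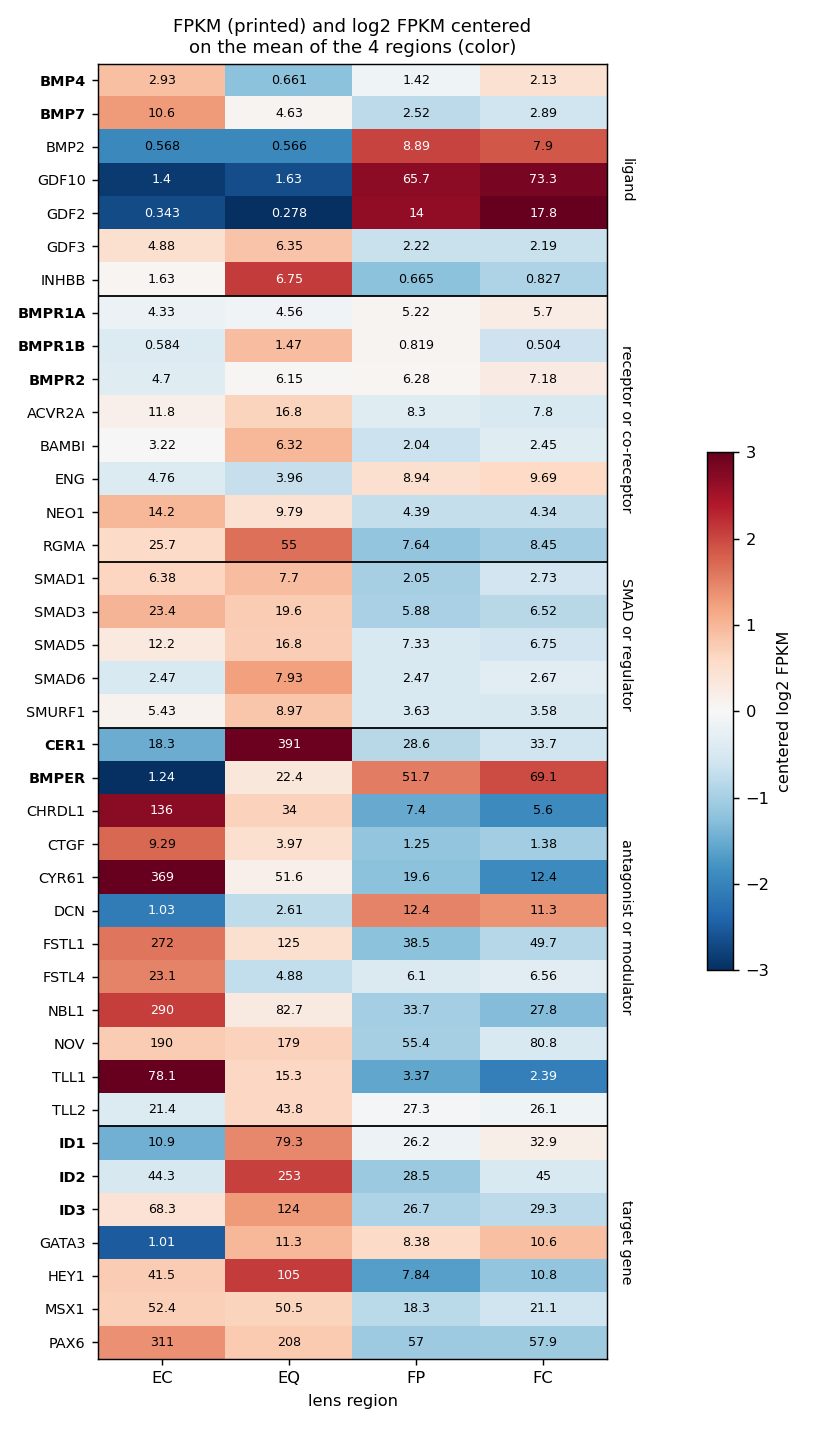
FPKM (printed) of the 10 genes (bold) and of 29 other pathway genes in the lens regions EC, EQ, FP and FC (columns), grouped by role, colored by log2 FPKM minus its mean over the 4 regions. CER1 (391 FPKM), HEY1 (105), ID2 (253) and INHBB (6.75) stood out in EQ, CHRDL1, CYR61 and TLL1 in EC, and BMP2, GDF10 and GDF2 in FP and FC.

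For FP over EQ, 4 of 9 receptors and co-receptors were lower and 1 was higher, and 6 of 16 SMADs and SMAD regulators were lower and none was higher, where 25.7% of all loci were lower and 15.5% were higher. RGMA, a BMP co-receptor, was at 25.7 FPKM in EC, at 55.0 in EQ (16.7 to 93.3), at 7.64 in FP (1.62 to 13.7) and at 8.45 in FC. Its partner NEO1 was at 14.2 FPKM in EC, at 9.79 in EQ and at 4.39 in FP, and the pseudoreceptor BAMBI was at 2.04 in FP, against 6.32 in EQ. ENG (endoglin) was the higher one, at 8.94 FPKM, against 3.96 in EQ. Of the SMADs that BMP receptors phosphorylate, SMAD1 was at 6.38 FPKM in EC, at 7.70 in EQ, at 2.05 in FP and at 2.73 in FC, and SMAD5 was at 12.2 in EC, at 16.8 in EQ, at 7.33 in FP and at 6.75 in FC. SMAD9 differed from both, at 0.718 FPKM in EC (0.0909 to 1.27), at 4.33 in EQ (1.64 to 7.00), at 4.04 in FP and at 2.66 in FC. For EQ over EC, 2 of 58 pathway loci (3.45%) were higher with intervals that did not overlap, where 0.761% of all loci were. SMAD9 was 1 of these 2. SMAD3, of the TGF-beta and activin branch, was at 23.4 FPKM in EC, at 19.6 in EQ and at 5.88 in FP. The ubiquitin ligase SMURF1, which targets SMADs, was at 3.63 FPKM in FP, against 8.97 in EQ, and the SMAD phosphatases CTDSP1 and PPM1A were at 22.3 and 27.2 FPKM in FP, against 29.7 and 27.5 in EQ.

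Other genes known as BMP targets did not all have the profile of the ID genes. SMAD6, an inhibitory SMAD that BMP signals induce, was at 2.47 FPKM in EC, at 7.93 in EQ, at 2.47 in FP and at 2.67 in FC. HEY1 was at 41.5 FPKM in EC, at 105 in EQ, at 7.84 in FP and at 10.8 in FC. HEY1, INHBB, RGMA and SMAD6 were the 4 of 52 pathway loci (7.69%) at least 2-fold above both EC and FP in EQ, where 3.57% of all loci were. However, RGMA was short of 2-fold for EQ over EC under all 3 rescalings. GATA3, needed for fiber differentiation in the mouse, was at 1.01 FPKM in EC (0.357 to 1.66), at 11.3 in EQ (3.11 to 19.7), at 8.38 in FP and at 10.6 in FC, and the intervals of EQ and EC did not overlap. MSX1 (listed as GHOX-7) and PAX6 (listed as PAX-6) differed by less than 2-fold between EQ and EC, with 50.5 and 52.4 FPKM for MSX1 and 208 and 311 FPKM for PAX6, and both were lower in FP, at 18.3 and 57.0 FPKM. RUNX2 was at 0.218 FPKM in EC, at 0.247 in EQ (0.0546 to 0.464), at 4.72 in FP (0.819 to 8.62) and at 2.03 in FC. Its intervals in EQ and FP did not overlap. For FP over EQ, 2 of 8 target loci were higher and 5 were lower, where 15.5% and 25.7% of all loci were.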

How the data were processed

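RNA of microdissected E13 chicken lens regions was made into directional mRNA libraries, 2 per region, and sequenced as single-end reads. The authors aligned the reads to Galgal4 with TopHat and deposited a table of FPKM with interval bounds, estimated with Cufflinks and Cuffdiff 2.1.1 and pooled over libraries. Delta-crystallin was left out of their run, and whether its fragments entered the FPKM scaling is not stated. A second deposited table holds the authors' own comparisons (log2 fold changes, test statistics, p-values and q-values) and was not used. The tables hold 0 columns per sample that were passed over.

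Ratios of FPKM were taken with no value added, and fibers over epithelium as FP plus FC over EC plus EQ. The step was tested on simulated data. The genes and lists were chosen with earlier results of these data known. Named were all 10 genes and, from the pathway list, those past 2-fold between neighboring regions with 5 FPKM or more in any region, and the most abundant of each role. Outside this rule, ACVR1, ACVR2B, ACVRL1, AMH, BMP3, BMP6, CHRD, NODAL, NOG and PPM1A were chosen with their values in view. The same holds for RUNX2, SMAD9, SMURF2, TBX2, TCF3, TCF4, TWSG1 and VWC2L. Chosen in the same way were the markers BFSP1, BFSP2, CD3E, COL1A2, FOXE3, HBZ, PDGFRA, PMEL, PROX1 and VWF. A further marker is not reported here and is in no sum. For 6 genes the 3 loci with the nearest profile were also named. Of the list, 8 genes were matched by RefSeq synonyms (GRCg7b). Alternatives were other scalings, added values of 1 and 0.1, thresholds of 1.5 and 3, other filters and intervals apart. Python 3.11.15, numpy 2.4.6, pandas 2.3.3 and matplotlib 3.10.9 were used. Promoter and protein sequences were not analysed here.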

Additional observations from a re-analysis of the deposited data

How the results depend on the processing

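No paired analysis was possible because each region has 1 pooled value, and for the same reason no library could be left out. The intervals-apart alternative was not run for fibers over epithelium, where sums have no interval. No gene past 2-fold changed direction among the 200 log2 ratios recomputed for the 10 genes, and the same genes were past 2-fold under all 3 scalings. Under the demand that intervals do not overlap, the genes counted were 2 in place of 7 for EQ over EC and 0 in place of 6 for FP over EQ, and the pathway loci were 3 in place of 20, 6 in place of 34 and, for FC over FP, 0 in place of 3. At 1.5-fold, 2 of the genes (BMP4 and ID2) and 10 pathway loci differed for FC over FP, in place of 0 and 3. At 3-fold the pathway counts were 22 for FP over EQ, 1 for FC over FP and 23, in place of 37, for fibers over epithelium. The pathway count for FC over FP was 5 under each of the 3 scalings, 0 with 1 FPKM added, 11 with no filter on low values and 1 with both regions at 1 FPKM or more. Apart from the intervals of EQ over EC and of FP over EQ, given above, the share over all loci was not taken under these alternatives. The counts therefore show how the results move and do not set the group against all loci. With 1 FPKM added, BMPR1B (EQ over EC) and BMP4 (FP over EQ) were short of 2-fold, and BMP4 also with 0.1 added. The demand for 1 FPKM or more in both regions left BMPR1B and BMP4 out of both comparisons, so that 8 genes were compared and neither was counted. Under all 3 scalings RGMA and TLL2 were short of 2-fold for EQ over EC and ACVR2A for FP over EQ, and with scaling by the median ratio NBL1, NEO1, SMAD5 and SMURF2 were also short of 2-fold for FP over EQ. The log2 ratio of EQ over EC ranged from 4.15 to 4.42 for CER1, from 3.39 to 4.18 for BMPER, from 2.60 to 2.87 for ID1 and from 2.25 to 2.52 for ID2. The table gives no read count behind each value, and for low values such as those of BMPR1B the deposited interval was the limit used.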

Other observations

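For 6 of the genes, the loci with the most similar profile were sought among 8168 loci with a gene symbol and 1 FPKM or more in every region. Likeness was the Euclidean distance between log2 FPKM values centered on their mean, over the 4 pooled regional values, so that 0 is an identical shape and the level does not count. The distances rest on 4 points from the same libraries and are given as a description.

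The nearest to CER1 was MXRA5, at a distance of 0.90, which stood at 31.9 FPKM in EC, at 297 in EQ, at 25.2 in FP and at 35.8 in FC, followed by CDK14 at 1.02 and GCHFR at 1.09. For BMPER the nearest was RSPO1, a secreted activator of Wnt signaling, at 0.49, which stood at 1.12 FPKM in EC, at 16.4 in EQ, at 57.6 in FP and at 51.5 in FC. Next came WNT7A, a Wnt ligand, at 0.92 and CRYBB3, a lens crystallin, at 0.98. Neighbors of ID1 were COTL1 at 0.10, FAM46A at 0.25 and NRARP, a Notch target, at 0.30. NRARP stood at 10.9 FPKM in EC, at 101 in EQ, at 33.3 in FP and at 42.2 in FC, beside 10.9, 79.3, 26.2 and 32.9 FPKM for ID1.

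ID2 was nearest to THBS1 (thrombospondin 1) at 0.20, which stood at 41.4 FPKM in EC, at 257 in EQ, at 31.5 in FP and at 42.2 in FC, then to SLC12A3 at 0.34 and CHST9 at 0.39. ID3 was nearest to ANKH at 0.04, LGR4 at 0.09 and BACE2 at 0.09. BMP7 was nearest to E2F1, a cell cycle transcription factor, at 0.09, then to SMC4, a condensin subunit, at 0.15 and PPAP2B at 0.17. E2F1 stood at 12.7 FPKM in EC, at 6.03 in EQ, at 3.12 in FP and at 3.53 in FC. Among the 10 genes themselves the closest pair was BMPR1A and BMPR2, at 0.23, and the closest pair of ID genes was ID2 and ID3, at 1.24.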
